A study of Homo sapiens with 4 samples.

Results

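Epithelial-mesenchymal transition (EMT) markers and factors were examined in HCC1954 cells, an established human breast cancer cell line. The members were the 10 rows of the gene count table, out of 58735, with the symbols VIM, CDH1, CDH2, FN1, ZEB1, ZEB2, SNAI1, SNAI2, TWIST1 and EPCAM. RNA was sequenced from 2 samples carrying a control short hairpin (shCON) and 2 carrying hairpin constructs against the palmitoyltransferase ZDHHC15 (shZDHHC15). No other treatment was given, and both groups were cultured in RPMI-1640 with serum. The labels mention a stable knockdown as well as a transient transfection with harvest after 36 h, and do not tell whether samples 1 and 2 of a group are repeat cultures or carry different hairpins. The paper reports that monoclonal cultures were screened for its hairpins, and does not say whether these samples came from such cultures. If so, differences between clones and the effect of the hairpin could not be told apart. The p-values therefore measure only the spread between these samples, which may be technical.

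In EMT, epithelial cells lose the junctions that tie them to their neighbours and take on a motile, matrix-producing state. The transcription factors of the SNAI, ZEB and TWIST families bind E-box motifs and repress epithelial genes such as CDH1, while microRNAs of the miR-200 family and miR-205 repress the ZEB factors. Carcinoma cells often occupy mixed states in which markers of both kinds are expressed, and breast cancer lines are commonly placed along this range by the genes described here.

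Of the 10 members, 8 passed the filter on low counts and were tested, and 4 of these changed. The mesenchymal filament gene VIM fell 7.88-fold and the transcription factor gene SNAI2 fell 1.9-fold in shZDHHC15 cells, while the matrix gene FN1 rose 1.38-fold. The epithelial adhesion gene EPCAM fell 1.28-fold, and the level of CDH1, which encodes E-cadherin, differed by less than its error. Thus 3 members were lower and 1 was higher at an adjusted p under 0.05, against 20.3% of all 15817 genes tested that were lower and 21.7% that were higher. These counts correspond to 37.5% and 12.5% of the 8 members tested. The median log2 fold change of these 8 members was -0.11, beside 0.02 for all genes tested.

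Between 17560982 and 19118704 reads were counted on genes per sample. Levels are given as counts-per-million (CPM) after trimmed-mean (TMM) normalisation, and where no read was counted the floor was taken as 3 counts, or 0.153 to 0.178 CPM, which covers counting error only. The hairpin target ZDHHC15 had 17617 and 15716 counts in shCON and 0 in both shZDHHC15 samples. Its level was at least 6036-fold lower in shZDHHC15 than the 947.7 CPM ± 24.4 (SD, n = 2) of shCON, with an adjusted p of 1.86e-14. A hairpin commonly leaves some of its target transcript, and how both samples came to hold no read of it was not tested. YAP1, the gene of the Hippo pathway coactivator that the study set beside ZDHHC15, fell by 2.81 on the log2 scale (SE 0.105, adjusted p 4.3e-11). All 7 epithelial breast cancer markers examined, among them ERBB2 and KRT8, were present in each sample, and their summed level was 16500 and 17900 CPM in shCON and 9460 and 9610 CPM in shZDHHC15. They did not move alike, since KRT8, KRT18 and KRT7 fell by 1.62, 1.58 and 0.99 on the log2 scale and ERBB2 by 0.24, while KRT19 rose by 0.44 (adjusted p 0.0115). The 11 markers of leukocytes and red blood cells summed to 9.64 and 11.4 CPM in shCON and to 5.95 and 7.27 CPM in shZDHHC15. CD3D, CD3E, MS4A1 and HBB were among those at 0 counts throughout. CSF1R, which held most of this sum, fell from 153 and 177 counts in shCON to 68 and 105 in shZDHHC15 (adjusted p 0.00134), while CD14 rose from 9 and 5 to 25 and 22 counts (adjusted p 0.0159). The 9 fibroblast markers summed to between 26.3 and 41 CPM, nearly all of it from FAP and COL1A1, and LUM was at 0. In bulk RNA, fewer cells of a type and less RNA per cell cannot be told apart.

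Per kilobase of annotated exon, the members spanned more than 3 orders of magnitude in shCON cells. EPCAM, at 108 and 99.7 CPM per kb, and FN1, at 109 and 95.5 CPM per kb, were the most abundant and overlapped each other. CDH1 followed at 61.1 and 57 CPM per kb. SNAI2, VIM, SNAI1 and TWIST1 came next, with means of 14.2, 10.1, 7.47 and 3.71 CPM per kb and no overlap between neighbours. CDH2, ZEB2 and ZEB1 were lowest, at 0.146, 0.0551 and 0.029 CPM per kb, where CDH2 and ZEB2 nearly touched and ZEB2 and ZEB1 overlapped. In shZDHHC15 cells FN1 stood first at 141 CPM per kb, and SNAI1 stood above SNAI2 at 9.28 against 7.46 CPM per kb without overlap between their samples. VIM passed from the fifth to the seventh place, below TWIST1. The exon lengths are unions over all annotated transcripts, so genes with long unused exons appear lower on this scale.

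**Figure D1:**
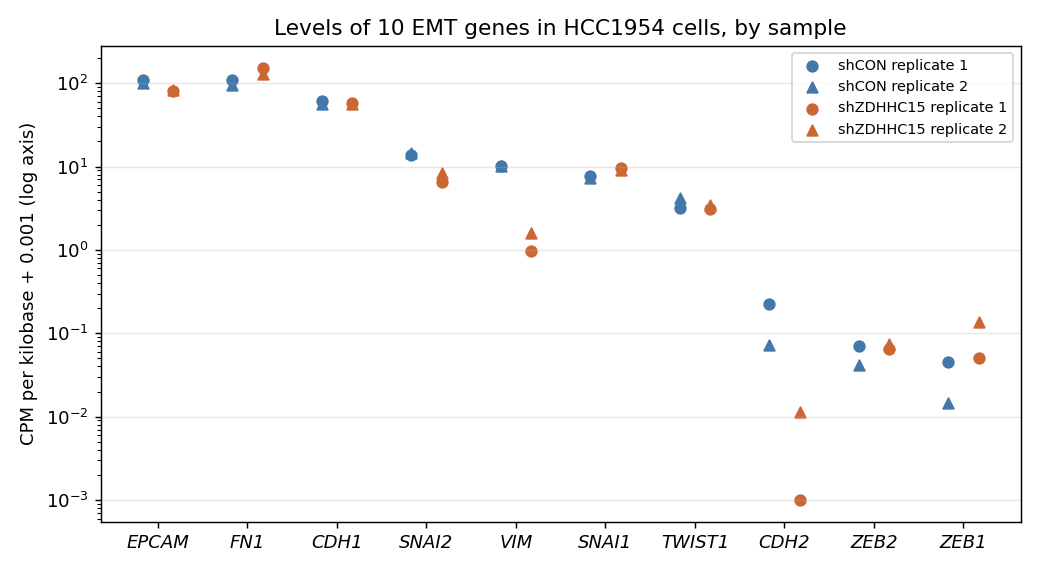
Level of each of the 10 EMT genes in every sample, as CPM per kilobase of exon plus 0.001 on a log axis, ordered by the shCON mean. Blue marks shCON, orange shZDHHC15, circles replicate 1 and triangles replicate 2. VIM and CDH2 show the widest gaps between the groups, while the points of CDH1, TWIST1 and ZEB2 lie together.

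VIM encodes vimentin, the intermediate filament protein that is the classical mesenchymal marker. It lies on chromosome 10, from 17228259 to 17237593 on the plus strand of GRCh38. VIM had 950 and 885 counts in shCON and 93 and 161 counts in shZDHHC15, which equals 52.0 and 52.4 CPM against 4.99 and 8.19 CPM. The shCON samples were nearly equal, and both shZDHHC15 samples lay far below them. The log2 fold change was -2.98 (SE 0.17, 95% interval -3.34 to -2.62), with an adjusted p of 4.64e-09 in edgeR's quasi-likelihood test. The antisense gene VIM-AS1 shares 641 exonic bases with VIM and had 16 and 13 counts in shCON and 2 and 4 in shZDHHC15. Reads of a gene and its antisense partner cannot be told apart here, since strand use in counting is not given in the sources used here, but all VIM-AS1 counts together were far fewer than those of VIM.

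The bases before the RefSeq starts of VIM and FN1 are shown because these are the mesenchymal markers that changed in opposite directions. The windows hold the 250 bases upstream of the RefSeq start site (GRCh38.p14), read 5′ to 3′ on the gene's strand, at chr10:17227991-17228240 (plus strand) for VIM and at chr2:215436069-215436318 (minus strand) for FN1. Capitals mark matches, on either strand, to any of 7 motifs searched, namely the SNAI and ZEB E-box CAGGTG, the TEAD element GGAATG, the AP-1 element TGANTCA, the GC box GGGCGG, the cAMP response element TGACGTCA, the CCAAT box and the letters TATAA.
VIM: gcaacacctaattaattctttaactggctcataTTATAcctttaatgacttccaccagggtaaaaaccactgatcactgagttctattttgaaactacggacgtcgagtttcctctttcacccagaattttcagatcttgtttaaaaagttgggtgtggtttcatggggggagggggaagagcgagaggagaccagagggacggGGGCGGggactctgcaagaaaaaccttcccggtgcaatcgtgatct
FN1: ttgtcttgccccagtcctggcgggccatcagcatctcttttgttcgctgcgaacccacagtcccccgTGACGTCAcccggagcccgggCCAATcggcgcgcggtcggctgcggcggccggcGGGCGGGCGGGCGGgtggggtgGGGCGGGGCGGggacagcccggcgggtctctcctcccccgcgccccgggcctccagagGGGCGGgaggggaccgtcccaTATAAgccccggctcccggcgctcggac
The VIM window had a GC content of 46.0% with 8 CpG dinucleotides, and the FN1 window 76.4% with 32, while the median of 35116 RefSeq windows was 58.0%. In the VIM window a GC box lay 46 to 41 bases upstream of the start and a reverse TATAA match lay 217 to 213 bases upstream. In the FN1 window 6 GC box matches were found, some of which overlap, together with a cAMP response element at 183 to 176, a CCAAT box at 162 to 158 and a TATAA match at 28 to 24 bases upstream. GC boxes occur in 42.6% of the windows, CCAAT boxes in 32.0%, TATAA in 18.9% and the cAMP response element in 1.65%. Neither window holds the E-box, TEAD or AP-1 letters, which occur in 17.5%, 11.9% and 6.57% of all windows. A match is a description of the sequence, and a missing match says only that these letters are not within this window. FN1 as annotated for the counts reaches to 215436172, so the part of its window nearest the RefSeq start lies inside that gene.

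FN1 encodes fibronectin, an extracellular matrix glycoprotein that mesenchymal cells secrete. The gene lies on chromosome 2, from 215360440 to 215436172 on the minus strand. FN1 had 34528 and 27912 counts in shCON and 49620 and 43798 in shZDHHC15, or 1891 and 1653 CPM against 2661 and 2228 CPM. Both shZDHHC15 samples were above both shCON samples by a margin similar to the gap between samples of the same group. The log2 fold change was 0.46 (SE 0.101, 95% interval 0.25 to 0.68), with an adjusted p of 0.00196. Without shZDHHC15 replicate 1 it was 0.33 and no longer passed, at an adjusted p of 0.0629.

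CDH2 encodes N-cadherin, which replaces E-cadherin in many mesenchymal cells, and was barely detected. It lies on chromosome 18, from 27950966 to 28177446 on the minus strand. CDH2 had 20 and 6 counts in shCON and 0 and 1 counts in shZDHHC15. It was not tested, since the filter asks for enough reads in as many samples as a group holds. Over the summed counts of 26 and 1, the level in shCON was 28.3-fold that in shZDHHC15, with an exact 95% interval of 4.66 to 1160 for counting error only, and most of the shCON reads came from replicate 1. Fitted without the filter on low counts, CDH2 had an adjusted p of 0.0372. The antisense gene AC110015.1 shares 136 exonic bases with CDH2 and had 13 and 20 counts in shCON and 4 and 3 in shZDHHC15, more than CDH2 in 3 of the 4 samples.

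CDH1 encodes E-cadherin, the core adhesion molecule of epithelial adherens junctions and the best-known target of the EMT repressors. It lies on chromosome 16, from 68737225 to 68835548 on the plus strand. CDH1 had 377.5 and 352.3 CPM in shCON and 359.9 and 346.6 CPM in shZDHHC15, from between 5950 and 6892 counts per sample. The groups overlapped. The log2 fold change was -0.05 (SE 0.088) with an adjusted p of 0.706, and its 95% interval ran from -0.23 to 0.14.

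EPCAM encodes an epithelial cell adhesion molecule that is widely used to mark carcinoma cells. It lies on chromosome 2, from 47345158 to 47387601 on the plus strand. Its counts were 4977 and 4241 in shCON and 3773 and 4092 in shZDHHC15, or 272.6 and 251.1 CPM against 202.3 and 208.1 CPM. Both shZDHHC15 samples were lower than both shCON samples. The log2 fold change was -0.35 (SE 0.0906, 95% interval -0.54 to -0.16), with an adjusted p of 0.00608. Without shZDHHC15 replicate 1 it was -0.33 and no longer passed, at an adjusted p of 0.0721.

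**Figure D2:**
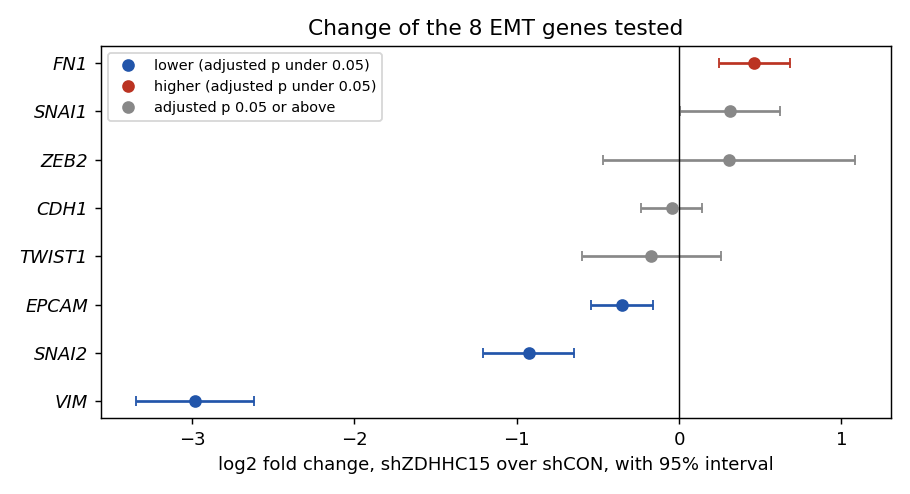
Log2 fold change of the 8 EMT genes tested, shZDHHC15 over shCON, with 95% intervals from edgeR. Blue genes were lower and the red gene was higher at an adjusted p under 0.05, and grey genes did not pass. VIM, at -2.98, stands well apart from the other 7, which lie between -0.93 and 0.46.

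Among the transcription factors, SNAI2 and SNAI1 differed in opposite directions, although only SNAI2 passed the test. SNAI2 encodes the zinc-finger repressor Slug, also known from mammary progenitor and basal cells. SNAI2 lies on chromosome 8, from 48917604 to 48921740 on the minus strand. SNAI2 had 863 and 829 counts in shCON and 410 and 563 in shZDHHC15, or 47.3 and 49.1 CPM against 21.98 and 28.64 CPM. The groups did not overlap, and the shZDHHC15 samples were further from each other than the shCON samples. The log2 fold change was -0.93 (SE 0.131, 95% interval -1.21 to -0.65), with an adjusted p of 5.72e-05.

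SNAI1 encodes Snail, the related repressor that is typically induced early in EMT. It lies on chromosome 20, from 49982999 to 49988886 on the plus strand. Its counts were 236 and 207 in shCON and 299 and 300 in shZDHHC15, which equals 12.9 and 12.3 CPM against 16.0 and 15.3 CPM. The shZDHHC15 samples were both above the shCON samples, with a log2 fold change of 0.31 (SE 0.145, 95% interval 0.0031 to 0.62). The unadjusted p was 0.048 and the adjusted p was 0.098, so that SNAI1 did not pass. With library sizes alone in place of TMM factors the log2 fold change was 0.39 and the adjusted p 0.0479. The related SNAI3 had 27 and 14 counts in shCON and 45 and 37 in shZDHHC15 (log2 fold change 0.87, adjusted p 0.0686).

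TWIST1, a basic helix-loop-helix factor of mesoderm and EMT, lies on chromosome 7, from 19020991 to 19117672 on the minus strand. TWIST1 had 6.52 and 8.59 CPM in shCON and 6.22 and 7.12 CPM in shZDHHC15, and the groups overlapped. Its log2 fold change was -0.17 (SE 0.2, 95% interval -0.60 to 0.26), with an adjusted p of 0.524. The paralog TWIST2 rose by 1.29 on the log2 scale (SE 0.299) with an adjusted p of 0.00298, from 27 and 37 counts in shCON to 98 and 73 in shZDHHC15.

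The ZEB genes encode large zinc-finger and homeodomain repressors of CDH1, and both were close to the detection floor. ZEB1 lies on chromosome 10, from 31318495 to 31529814 on the plus strand, and ZEB2 on chromosome 2, from 144364364 to 144524583 on the minus strand. ZEB1 had 7 and 2 counts in shCON and 8 and 23 in shZDHHC15, and did not pass the filter on low counts. The summed counts of 9 and 31 gave a ratio of 3.16, with an exact 95% interval of 1.47 to 7.55 for counting error only. Fitted without the filter on low counts, ZEB1 had an adjusted p of 0.215, and most of the shZDHHC15 reads came from replicate 2. The antisense gene ZEB1-AS1, with 366 shared exonic bases, had more reads than ZEB1 in every sample, namely 83 and 107 in shCON and 60 and 42 in shZDHHC15. ZEB2 had 32 and 17 counts in shCON and 30 and 36 in shZDHHC15. Its log2 fold change was 0.31 (SE 0.364, 95% interval -0.47 to 1.08), with an adjusted p of 0.533. ZEB2 thus did not pass, and its interval, wide at these low counts, holds falls as well as rises.

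The host genes MIR205HG and MIR200CHG, of microRNAs that repress the ZEB genes, were counted in these libraries. Both fell, as did 20.3% of all genes tested. No separate host gene of miR-200a, miR-200b and miR-429 was examined. MIR205HG, the host gene of miR-205, had 1854 and 1665 counts in shCON and 895 and 1057 in shZDHHC15, a log2 fold change of -0.98 (SE 0.103) with an adjusted p of 3.69e-06. MIR200CHG, which hosts miR-200c and miR-141, had 85 and 127 counts in shCON and 58 and 72 in shZDHHC15, a log2 fold change of -0.83 (SE 0.26) with an adjusted p of 0.0184. MIR200A, MIR200B and MIR429 were tested as separate genes with at most 20 counts per sample and did not pass, with log2 fold changes of -0.70, -1.22 and -0.17 and adjusted p-values of 0.353, 0.135 and 0.806. MIR200C, MIR141 and MIR205 had at most 9 counts in any sample and were not tested. The libraries do not measure mature microRNAs, and these values count reads of longer transcripts.

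The mature sequences of these microRNAs are shown to set out the shared seeds, which are the bases 2 to 8 in capitals (RefSeq, GRCh38.p14).
miR-200c-3p: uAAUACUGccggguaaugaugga
miR-200b-3p: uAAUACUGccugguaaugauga
miR-429: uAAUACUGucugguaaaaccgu
miR-141-3p: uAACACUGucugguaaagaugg
miR-200a-3p: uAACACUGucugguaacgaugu
miR-205-5p: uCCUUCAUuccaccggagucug
miR-200c, miR-200b and miR-429 carry the same seed, miR-141 and miR-200a share another, and miR-205 has a seed of its own. MIR200CHG thus hosts a member of each of the miR-200 seed groups. miR-141 and miR-200c lie on chromosome 12, and the remaining 4 on chromosome 1.

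Other transcription factors known from EMT were lower in 5 and higher in 3 of the 11 tested, out of 16 listed, with a median log2 fold change of -0.12. These are shares of 45.5% and 27.3%, beside 20.3% lower and 21.7% higher among all genes tested. HMGA2, a chromatin architectural protein that acts upstream of SNAI and TWIST genes, fell by 1.70 on the log2 scale (adjusted p 1.83e-06), with 528 and 504 counts in shCON and 133 and 213 in shZDHHC15. ETS1 fell by 0.82 (adjusted p 7.43e-05) and SOX9, a partner of Slug in mammary stem cells, by 0.37 (adjusted p 0.00368). Besides TWIST2, RUNX2 rose by 0.37 (adjusted p 0.0374). PRRX1, FOXC2 and TCF4 had 0 counts in all 4 samples.

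Of the epithelial transcription and splicing regulators, 3 rose and 3 fell among 14 tested of 15, with a median of -0.08. Each count is a share of 21.4%, near the 21.7% and 20.3% of all genes tested. GRHL1 rose by 0.92 on the log2 scale (adjusted p 2.87e-05), EHF by 0.89 (adjusted p 3.41e-05) and TP63, the basal cell factor, by 0.61 (adjusted p 0.000531). KLF4 fell by 0.70 (adjusted p 0.000122), the splicing regulator ESRP2 by 0.37 (adjusted p 0.00675) and GRHL2, an activator of CDH1, by 0.29 (adjusted p 0.0167). ESRP1 and the ZEB1 repressors OVOL1 and OVOL2 had log2 fold changes of 0.18, -0.29 and -0.02 and adjusted p-values of 0.158, 0.107 and 0.931.

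Around CDH1 and CDH2, 6 of 19 other cadherins, catenins and nectins tested (of 20 listed) were higher and 1 was lower, or 31.6% and 5.26% against 21.7% and 20.3% of all genes, with a median of 0.26. CDH3, which encodes P-cadherin, a classical cadherin like E-cadherin, rose by 0.37 on the log2 scale (SE 0.087, adjusted p 0.00319), from 8821 and 8780 counts in shCON to 12359 and 12487 in shZDHHC15. CDH13, 1 of the 6 higher genes, had 0 counts in shCON and 10 and 11 in shZDHHC15. It was at least 3.2-fold higher against the floor of 3 counts per library. Only its shZDHHC15 samples held the reads that the filter asks for, so its place among the 6 rests partly on the filter. When genes averaging fewer than 10 counts were dropped instead, 5 of this list were higher. CDH5 rose by 0.65 (adjusted p 0.000284) and NECTIN1 by 0.53 (adjusted p 0.00108). CTNNA1, which encodes the alpha-catenin that links E-cadherin complexes to actin, fell by 0.45 (adjusted p 0.000812). CTNNB1 and CTNND1, which encode beta-catenin and p120-catenin, had log2 fold changes of 0.15 and 0.19 and adjusted p-values of 0.179 and 0.0949. CDH5 is also an endothelial marker, and the 5 endothelial markers examined summed to 57.4 CPM in each shCON sample and to 108 and 101 CPM in shZDHHC15, with PECAM1 at 75 and 56 counts in shCON and 666 and 405 in shZDHHC15. VWF and TEK had at most 7 counts in any sample, KDR fell by 0.64 on the log2 scale (adjusted p 0.0227), and the part of other cells in these results was not tested.

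Other mesenchymal genes were mixed, as VIM and FN1 were, with 7 higher and 4 lower of 19 tested (26 listed) and a median of 0.29. The shares were 36.8% and 21.1%, against 21.7% and 20.3% of all genes tested. The receptor tyrosine kinase gene AXL fell by 1.89 on the log2 scale (adjusted p 4.25e-08). TAGLN, an actin-binding smooth muscle gene, fell by 1.37 (adjusted p 1.25e-06). The matrix gene TNC rose by 1.13 (adjusted p 1.14e-07), the ligand gene WNT5A by 0.95 (adjusted p 0.00538) and the gelatinase gene MMP2 by 0.80 (adjusted p 9.1e-05).

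Of 27 other epithelial genes, all tested, 14 were lower and 6 were higher, with a median of -0.27. The lower share was 51.9% against 20.3% of all genes tested, and the higher share of 22.2% was near the 21.7% of all genes. The simple-epithelium keratin genes KRT8 and KRT18 fell by 1.62 and 1.58 on the log2 scale (adjusted p 4.87e-09 and 7.76e-09), and the claudin gene CLDN3 by 1.12 (adjusted p 6.62e-05). KRT8 had 105283 and 106976 counts in shCON and 34507 and 40916 in shZDHHC15. TJP3, which encodes the junction scaffold ZO-3, rose by 2.33 (adjusted p 7.54e-08) and the mucin gene MUC1 by 2.03 (adjusted p 1.08e-06). EPCAM was lower as well, while CDH1 did not pass.

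The cofactors and stability regulators of SNAI and ZEB proteins were higher in 6 and lower in 1 of 17, all tested, with a median of 0.22, or 35.3% and 5.88% against 21.7% and 20.3% of all genes. The Polycomb genes SUZ12, EED and EZH2 rose by 0.82, 0.52 and 0.48 on the log2 scale (adjusted p 6.42e-05, 0.0017 and 0.00143), and SIN3A by 0.73 (adjusted p 0.000141). CTBP1, the corepressor that ZEB proteins bind, fell by 0.52 (adjusted p 0.000615).

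The patterns of the tested protein-coding genes over the 4 samples were compared by the Euclidean distance between centred log2 CPM values. The genes most like VIM, SNAI2 and FN1 are named here. For VIM these were CYR61, a matricellular gene known as a YAP target, at a distance of 0.194, COL15A1 at 0.263 and PAPPA2 at 0.268. CYR61 had 15531 and 14773 counts in shCON and 1741 and 3080 in shZDHHC15. For SNAI2 they were NT5DC2, HSD11B2 and PCBP4 at 0.0497, 0.0526 and 0.0684. For FN1 they were LRRC1, GPR107 and PRRG4 at 0.0152, 0.0325 and 0.0406. With 4 samples, genes with a similar fold change in the same samples come out as alike.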

How the data were processed

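RNA of 4 HCC1954 samples, 2 per group as the labels give them, was analysed. The authors deposited raw read counts per gene, not normalised, with each gene's exon length in bases. Per the labels, HISAT2, SAMtools, StringTie and hg38 were used upstream, and the counter and its strand setting are not given in the sources used here. All 58735 genes matched GENCODE release 29 in start and end, and every count column was used. Counts were filtered with filterByExpr, which left 15817 genes, and tested in R 4.3.3 with edgeR 4.0.16 (TMM, glmQLFit with legacy = FALSE, glmQLFTest) with Benjamini-Hochberg adjustment over all genes tested and a threshold of 0.05. Intervals are at 95%. With 2 samples per group a permutation test could not go below p = 0.333, so the p-values rest on the model. Within a group the counts differed by more than counting noise (chi-square per degree of freedom 8.32 and 6.79), so each sample was counted on its own, which does not tell whether the samples came from separate cultures. DESeq2 1.42.0 was an alternative. Promoter windows and microRNAs came from RefSeq tables, where 5 of the 10 members had a promoter entry. Exon overlaps, and shared stretches of at least 150 bases at 97% identity (BLAST+ 2.17.0), were found only with antisense or other opposite-strand genes. The members and lists were chosen with earlier results of these data known. All members are named, and from each list up to 3 of the largest rises and falls past the test, together with set relatives of the members, except that some results under this rule are not reported here. The tests were checked on simulated counts. A fold against a group at 0 counts was computed against 3 counts per library.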

Additional observations from a re-analysis of the deposited data

How the results depend on the processing

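The 11 alternatives were DESeq2 size factors, library size only, the DESeq2 Wald test, the legacy quasi-dispersion, no filter on low counts, a mean of at least 10 counts, a replicate block and leaving out each sample. No log2 fold change of a called member changed sign under them. VIM ranged from -3.39 to -2.67, SNAI2 from -1.14 to -0.75, FN1 from 0.33 to 0.58 and EPCAM from -0.42 to -0.28. CDH1, TWIST1 and ZEB2 did not pass under any, and each took both signs. With library size only, 2 members were higher, since SNAI1 was added. Without the filter, 2282 genes and 4 other mesenchymal genes were higher, in a fit of 30168 genes. Leaving out a sample leaves a lone sample in its group, which is assumed to vary like the other group. The members higher then numbered 1 to 2 (2 without shCON replicate 1, where ZEB1 was tested and passed), the other EMT transcription factors higher 2 to 5 (5 without shCON replicate 1) and lower 3 to 5 (3 without shZDHHC15 replicate 2), and the epithelial regulators lower 1 to 4 (1 without shZDHHC15 replicate 1). ZEB1 had an adjusted p of 0.0394 without shCON replicate 1, 0.00993 without shZDHHC15 replicate 1, and 0.325 without shCON replicate 2, and on all 4 samples 0.215 without the filter and 0.0707 with a mean of at least 10 counts. CDH2, untested in the full set, passed without the filter (adjusted p 0.0372), so 3 to 4 members were lower under the alternatives that kept all samples. It was also tested without shCON replicate 2 (log2 fold change -5.08), shZDHHC15 replicate 1 (-3.69) or shZDHHC15 replicate 2, where the shZDHHC15 sample left had 0 counts. The members behind these counts were not always the same. Without shZDHHC15 replicate 1, FN1 and EPCAM no longer passed, and ZEB1 and CDH2 took their places. The deviations of same-numbered samples correlated at 0.0232 over genes. This single value does not tell whether same-numbered samples shared a culture, a hairpin or handling. With the replicate block 3 members were lower and 1 was higher, as in the fit without it, and 3502 genes were lower and 3723 higher in all. The cause of these differences was not tested. Depth limits CDH2, ZEB1 and ZEB2 most.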
